A study of Homo sapiens with 4 samples.

Results

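The genes followed here are 50 genes whose products copy DNA or supply the nucleotides for it, chosen by name as the core of DNA replication and nucleotide synthesis. All 50 were found in the count table, which lists 63856 genes, and all 50 were among the 15830 genes with enough counts to be tested. They were followed in MCF10A cells, a non-tumorigenic human breast epithelial line, as wild-type cells (WT, 2 libraries) and as cells that stably overexpress heat shock factor 1 from a lentiviral vector (HSF1-pLVX, 2 libraries). HSF1 is the transcription factor that switches on chaperone genes under stress. The labels give the same culture medium for both groups. HSF1-pLVX cells had been infected and selected with puromycin, WT cells had not, and no cells with the empty vector were analysed here, so HSF1 and the handling of the infected cells cannot be told apart.

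Eukaryotic cells copy their DNA once per cycle. The origin recognition complex (ORC) marks origins, and CDC6 and CDT1 load the MCM2-7 ring onto it, a step called licensing that geminin (GMNN) blocks by holding CDT1. In S phase the ring is switched on by the kinase CDC7-DBF4 and joined by CDC45 and the GINS complex to form the working helicase. Polymerase alpha with primase then starts each strand, polymerases epsilon and delta extend it behind the sliding clamp PCNA, and FEN1, DNA2 and LIG1 join the lagging strand pieces. Ribonucleotide reductase, thymidylate synthase and thymidine kinase provide the deoxynucleotides. Many of these genes are known targets of E2F transcription factors, which act at the entry into S phase.

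The libraries held between 18688109 and 24184285 counts. HSF1 itself was counted 3762 and 3515 times in WT and 24664 and 19839 times in HSF1-pLVX libraries, a log2 fold change of 2.35 (edgeR adjusted p = 5.77e-55), so the libraries went with their labels. All 8 mammary epithelial markers were expressed in each library. KRT5 and TP63 were higher in HSF1-pLVX, while KRT14, KRT17, KRT6A and LAMB3 and the general epithelial markers EPCAM and CDH1 were lower. The immune markers summed to at most 0.484 CPM, counts scaled to a common library size, with PTPRC at 0 in all 4 libraries. Fibroblast markers summed to 7.72 to 10.8 CPM in WT and 13.9 to 14.9 CPM in HSF1-pLVX. COL1A1 stood at 7.19 and 10.4 CPM in WT and 10.7 and 9.21 CPM in HSF1-pLVX and was not called (edgeR adjusted p = 0.287). DCN had 1 and 3 counts in WT and 94 and 87 in HSF1-pLVX (edgeR adjusted p = 8.59e-27). PDGFRA had 6 and 4 counts in WT and 1 and 1 in HSF1-pLVX, COL3A1 1 and 1 against 0 and 0, and PDGFRB 2 and 0 against 10 and 5. LUM was at 0 in 3 of 4 libraries. Endothelial markers summed to 1.94 to 3.04 CPM in WT and 13.1 to 14.3 CPM in HSF1-pLVX, most of it KDR, while VWF and CDH5 had at most 8 counts in any library. The part of these marker levels in the results was not tested.

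Replication genes were higher in HSF1-pLVX cells at every step from licensing to nucleotide supply. Together the 50 genes summed to 1293 and 1149 CPM in the WT libraries and to 3028 and 3018 CPM in the HSF1-pLVX libraries. In the quasi-likelihood fit of edgeR, with p-values adjusted by Benjamini-Hochberg over all tested genes, 48 were higher, 1 was lower (ORC4) and 1 did not pass (RPA2). Over all tested genes, 32.5% were called higher and 32.7% lower. A fold change of at least 2 was reached upwards by 42 of the 50, against 14.9% of all tested genes, and downwards by none, against 14% of all tested genes. On the log2 scale the 50 genes had a median change of 1.5, and all tested genes one of 0.021. More RNA of these genes per cell and more cells in the phase that expresses them cannot be told apart in these bulk libraries.

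**Figure D1:**
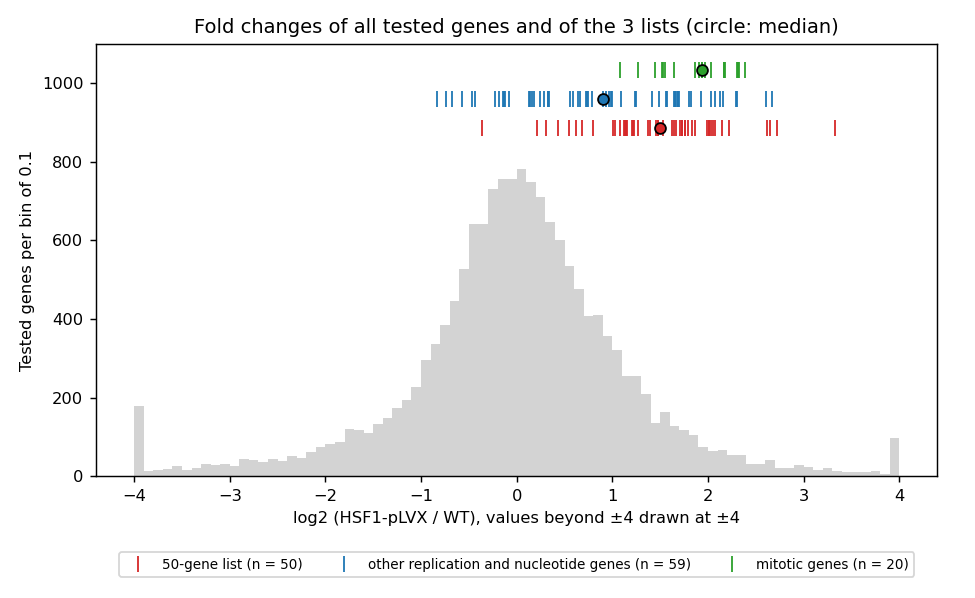
Histogram of the log2 fold changes (HSF1-pLVX over WT) of 15830 tested genes, in bins of 0.1, with a tick for each gene of the 50-gene list, of 59 other replication and nucleotide genes and of 20 mitotic genes, and a circle at each list's median. The median of the 50-gene list lies at 1.5, that of the 59 genes at 0.90 and that of the mitotic genes at 1.94.

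Both replicates were also read apart, since the study compares HSF1-pLVX with WT within each replicate number. The median log2 ratio of the 50 genes was 1.40 in replicate 1 and 1.56 in replicate 2, and 49 genes had a ratio above 1 in both. The ratio was the larger one in replicate 2 for 36 genes and in replicate 1 for 14 genes. WT library 1 was the higher of the WT pair for 38 of the 50 genes. The SD over the 50 genes of the log2 difference between the replicates was 0.221 in WT and 0.111 in HSF1-pLVX. Over all tested genes it was 0.262 in WT and 0.242 in HSF1-pLVX. The part of the lower counts of these genes in WT in this gap was not tested. The groups did not overlap for any of the 50 genes: both HSF1-pLVX libraries were above both WT libraries in 49 (42.1% of all tested genes) and below them in 1 (41% of all tested genes).

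The study's own criterion asks for a ratio of deposited normalized values above 2 or below 0.5 in both replicates. It was met upwards by 37 of the 50 genes, against 5% of the 22321 genes in that table, and downwards by none, against 6.42%. Replicate 1 taken alone gave 38 genes and replicate 2 gave 41. Of the 13 genes that did not meet it, RPA3 passed in replicate 1 alone, and GINS3, POLA1, FEN1 and RRM1 passed in replicate 2 alone. The 8 genes that passed in neither were ORC2, ORC3, ORC4, ORC5, POLA2, RFC1, RPA1 and RPA2.

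**Figure D2:**
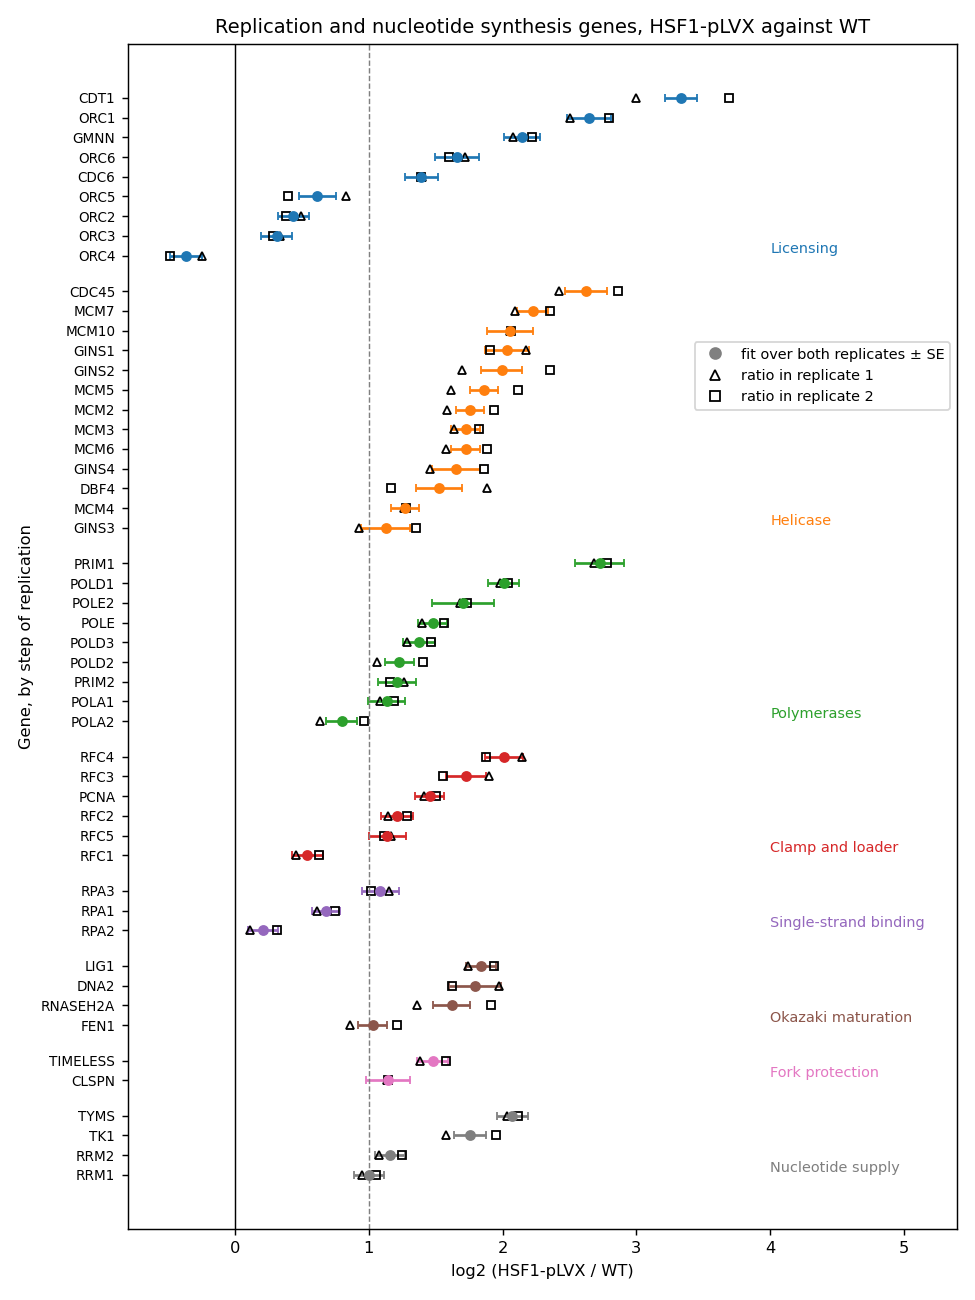
Log2 ratio of HSF1-pLVX to WT (x axis) for each of the 50 genes, grouped by step of replication; filled circles with bars give the edgeR estimate ± SE, triangles the ratio in replicate 1 and squares the ratio in replicate 2, and the dashed line marks a 2-fold rise. By the edgeR estimates, CDT1 lies farthest right at 3.33, ORC4 is the only gene left of 0 at -0.36, and the 13 helicase genes all lie right of the dashed line.

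The start sites of these genes were searched for letters that known cell cycle factors bind. The share of these genes with a match follows from which genes were chosen, and would be the same whatever the libraries showed. RefSeq promoter windows (GRCh38.p14, 250 bases before to 50 after the start) were held for 43 of the 50 genes. MCM4, MCM5, GINS4, POLD3, RPA2, RPA3 and DNA2 had none in that table. An E2F-type site, taken as any of TTTCCCGC, TTTCGCGC, TTTGCCGC and TTTGGCGC on either strand, was present in 20 of the 43 genes (46.5%), in 3.99% of all 27305 genes of the table and in 6.46% of the 10972 tested genes that had a window. CCAAT, the NF-Y box, was present in 62.8% of the 43 genes, in 39.7% of all and in 42.6% of the tested genes. GAANNTTC, a pair of inverted heat shock units, was present in 2 of the 43 (4.65%, ORC1 and TIMELESS), in 8.21% of all and in 6.63% of the tested genes. TTTGAA or TTCGAA, the cell cycle homology region, was present in 3 of the 43 (6.98%), in 19.5% of all and in 15.9% of the tested genes. These motifs were counted on both strands, a gene counted once over all of its windows, and the E2F-type letters can overlap each other. A match is a description of the letters and not a measured binding site.

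Sites of a chosen part of the genes with an E2F-type match are shown as stretches of 30 bases on the strand of the gene, 5′ to 3′. The letters of each match are in capitals, including matches on the opposite strand. CDC6, MCM2, PCNA and TYMS were named for printing by rule, and CDT1, GMNN, MCM6, MCM7, RFC3 and LIG1 were added after their matches were seen, so that licensing, helicase, loader and ligation are all represented.
CDT1, chr16:88803743-88803772, plus strand: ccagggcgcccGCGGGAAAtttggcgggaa
CDC6, chr17:40287875-40287904, plus strand: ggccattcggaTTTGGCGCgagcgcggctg
GMNN, chr6:24775322-24775351, plus strand: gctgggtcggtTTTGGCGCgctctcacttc
MCM2, chr3:127598404-127598433, plus strand: tgaaccactTTTCGCGCGAAAcctggttgt
MCM6, chr2:135876575-135876604, minus strand: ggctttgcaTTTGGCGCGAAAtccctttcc
MCM6, chr2:135876513-135876542, minus strand: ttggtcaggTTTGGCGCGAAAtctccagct
MCM7, chr7:100101388-100101417, minus strand: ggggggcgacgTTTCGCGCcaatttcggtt
PCNA, chr20:5126663-5126692, minus strand: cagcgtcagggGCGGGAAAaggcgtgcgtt
RFC3, chr13:33818083-33818112, plus strand: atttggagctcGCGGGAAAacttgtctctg
LIG1, chr19:48170440-48170469, minus strand: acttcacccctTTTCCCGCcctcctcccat
TYMS, chr18:657603-657632, plus strand: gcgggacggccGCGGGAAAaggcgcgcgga

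In MCM2 and MCM6 the capitals hold a pair of overlapping matches on opposite strands, and MCM6 carries this arrangement at both printed places. The matches begin 39 bases before the RefSeq start in TYMS, 35 before it in CDT1 and 80 before it in GMNN, while those of MCM2 and CDC6 begin at bases 3 and 8 of the transcript. Of the 2 matches of MCM7 the one nearest the start is printed, and the other begins 187 bases before the start. The PCNA match lies in one of its 2 windows. RRM2 held CCAAT but no E2F-type letters in its window. PRIM1, ORC1 and CDC45, which rose 6.62-, 6.25- and 6.16-fold, held no E2F-type letters either. ORC3 and POLA2, which rose 1.24- and 1.74-fold, each held a match. Among the 43 genes, those with an E2F-type match had a median log2 fold change of 1.73 and those without one of 1.23, given as a description since the genes are not independent of each other. Over all tested genes with a window these medians were 0.17 and -0.02. Of 16 mitotic genes with a window 2 held a match (12.5%), and the medians with and without one were 2.17 and 1.92. CCAAT was present in 87.5% of these 16 genes and the cell cycle homology region in 81.2%. Of the 59 other replication and nucleotide genes, 49 had a window and 13 of these held an E2F-type match (26.5%). Their medians with and without one were 1.09 and 0.45.

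Licensing factors held both the largest rise and the one fall of the 50 genes. Of 9 licensing genes 8 were higher, 5 of them at least 2-fold, with a median log2 fold change of 1.39. CDT1, the MCM loader, at chr16:88803213-88809258 (hg38, plus strand), was counted 189 and 141 times in WT and 2019 and 1952 times in HSF1-pLVX. The groups were far apart, and the fitted rise was 10.1-fold (log2 3.33 ± 0.121 SE, edgeR adjusted p = 2.2e-159), with a log2 ratio of 2.998 in replicate 1 and 3.70 in replicate 2. GMNN, which encodes the CDT1 inhibitor geminin, was counted 147 and 135 times in WT and 829 and 671 times in HSF1-pLVX. Both HSF1-pLVX libraries were well above WT, and the fitted rise was 4.42-fold (log2 2.14 ± 0.136 SE, edgeR adjusted p = 2.14e-54). Loader and inhibitor thus rose by different amounts, as seen on the scale of CPM per kb of exon: the ratio of the CDT1 level to the GMNN level was 0.954 and 0.775 in WT and 1.81 and 2.16 in HSF1-pLVX. CDC6, the ATPase that loads MCM rings together with CDT1, had 262 and 243 counts in WT and 924 and 681 in HSF1-pLVX, a fitted rise of 2.63-fold (log2 1.39 ± 0.123 SE, edgeR adjusted p = 2.23e-28). Its replicate ratios were nearly equal, at log2 1.40 and 1.39.

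The 6 ORC subunits did not move as one. ORC1, the ATPase subunit whose amount is known to follow the cell cycle, rose 6.25-fold from 69 and 62 counts in WT to 524 and 459 in HSF1-pLVX (edgeR adjusted p = 3.68e-55), and ORC6 rose 3.16-fold. ORC2, ORC3 and ORC5, which belong to the stable core, rose by 1.35-, 1.24- and 1.53-fold (edgeR adjusted p = 0.000465, 0.0106 and 2.2e-05). With DESeq2 the calls of ORC2 (adjusted p = 0.0627) and ORC3 (adjusted p = 0.184) were lost, as was that of ORC3 without HSF1-pLVX library 2 (adjusted p = 0.055). ORC4, also of the core, at chr2:147930397-148021604 (hg38, minus strand), had 493 and 584 counts in WT and 556 and 446 in HSF1-pLVX. Its raw counts overlap, but scaled to library size it stood at 2.95 and 3.53 CPM per kb in WT and at 2.48 and 2.52 CPM per kb in HSF1-pLVX, without overlap. The fitted fold was 0.776 (log2 -0.36 ± 0.118 SE, edgeR adjusted p = 0.00379). The call was lost without WT library 2 (log2 -0.25, adjusted p = 0.0762) and without HSF1-pLVX library 2 (log2 -0.37, adjusted p = 0.106). It was also lost with scaling by library size only (adjusted p = 0.061) and with DESeq2 (adjusted p = 0.108). On the same scale ORC1 stood at 1.16 and 1.06 CPM per kb in WT, below ORC4, and at 6.61 and 7.32 CPM per kb in HSF1-pLVX, above it. This crossing depends on the exon lengths, 3157 bases in ORC1 and 8915 in ORC4. In CPM, not divided by length, ORC1 was about level with ORC4 in HSF1-pLVX, at 20.87 and 23.1 against 22.15 and 22.45. ORC3 was the highest of the 6 subunits per kb in all 4 libraries, at 7.32 to 9.25 CPM per kb. In CPM, ORC4 was above ORC3 in WT library 2, at 31.43 against 27.93.

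**Figure D3:**
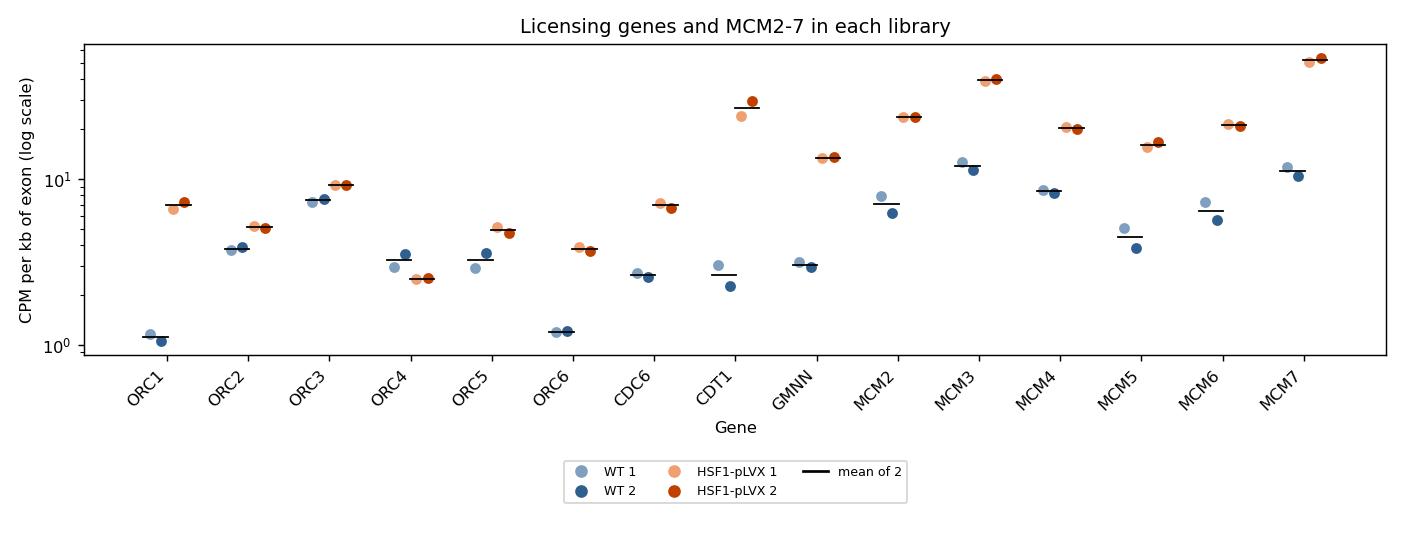
Level of the 9 licensing genes and of MCM2 to MCM7 in each library, as CPM per kb of exon on a log axis; points are single libraries and black lines the mean of 2. WT and HSF1-pLVX points are separate for every gene shown, HSF1-pLVX is the higher except in ORC4, and the gap is widest in CDT1.

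All 13 helicase genes rose at least 2-fold in the fit, with a median log2 fold change of 1.76. The 6 genes of the MCM2-7 ring rose between 2.42-fold (MCM4) and 4.67-fold (MCM7). MCM2 was counted 726 and 566 times in WT and 2913 and 2317 times in HSF1-pLVX. Its groups were apart, with a rise of 3.38-fold (log2 1.76 ± 0.107 SE, edgeR adjusted p = 6.7e-59). MCM5 was counted 700 and 526 times in WT and 2869 and 2437 times in HSF1-pLVX, a rise of 3.63-fold (log2 1.86 ± 0.107 SE, edgeR adjusted p = 4.58e-65). Its log2 ratio was 1.62 in replicate 1 and 2.11 in replicate 2, a gap that goes with the lower WT library 2. The ring holds 1 copy of each subunit, but the RNA levels per kb were not equal: the highest of the 6 over the lowest was 2.50 and 2.95 in WT and 3.26 and 3.22 in HSF1-pLVX. MCM5 was the lowest of the 6 per kb in each library, but this rank depends on its exon length, 7338 bases against 4118 in MCM6. In CPM, not divided by length, MCM5 was above MCM6 in each library, at 37.29 and 28.31 against 29.78 and 23.47 in WT. Per kb, MCM3 and MCM7 were the highest, with mean levels of 12.0 ± 0.909 and 11.2 ± 0.981 CPM per kb in WT (SD, n = 2). MCM3 was above MCM7 per kb in both WT libraries, at 12.68 and 11.4 against 11.89 and 10.5. In CPM, MCM3 was below MCM7 in both, at 46.29 and 41.6 against 52.15 and 46.07. In HSF1-pLVX they stood at 39.8 ± 0.649 and 52.3 ± 2.14 CPM per kb (SD, n = 2), and MCM7 was above MCM3 in both libraries. In CPM, MCM4 was the highest in WT, at 58.97 and 56.08. MCM2 was above MCM6 in both WT libraries, at 7.89 and 6.21 against 7.23 and 5.70 CPM per kb.

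Of the factors that switch the ring on, CDC45, an integral part of the moving helicase, changed most. It was counted 93 and 65 times in WT and 665 and 505 times in HSF1-pLVX. The groups were apart and the rise was 6.16-fold (log2 2.62 ± 0.156 SE, edgeR adjusted p = 1.38e-61). The 4 GINS genes rose with a median log2 fold change of 1.82, from GINS1 at 4.10-fold and GINS2 at 3.98-fold to GINS4 at 3.14-fold and GINS3. GINS3 was the smallest rise of the helicase step, with 101 and 74 counts in WT and 257 and 202 in HSF1-pLVX, 2.18-fold (log2 1.126 ± 0.183 SE, edgeR adjusted p = 2.89e-09). Its log2 ratio was 0.928 in replicate 1, under 2-fold, and 1.352 in replicate 2. MCM10, which helps to activate the assembled helicase, rose 4.16-fold. DBF4, the activating subunit of the CDC7 kinase, rose 2.88-fold, and its ratio differed between replicates, at log2 1.88 in replicate 1 and 1.17 in replicate 2. CDC7 itself, outside the 50 genes, rose 4.91-fold from 51 and 48 to 330 and 257 counts (edgeR adjusted p = 4.66e-31). The ratio of DBF4 to CDC7 in CPM per kb was 1.22 and 1.59 in WT and 0.929 and 0.710 in HSF1-pLVX.

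All 9 polymerase and primase genes were higher, 8 of them at least 2-fold, with a median log2 fold change of 1.37. PRIM1, the catalytic subunit of primase, which makes the RNA primers, had the second largest rise of the 50 genes. It had 57 and 44 counts in WT and 489 and 324 in HSF1-pLVX, 6.62-fold (log2 2.73 ± 0.182 SE, edgeR adjusted p = 6.22e-49). The other 3 subunits of the same polymerase alpha-primase complex rose much less: PRIM2 by 2.32-fold, POLA1 by 2.20-fold and POLA2 by 1.74-fold. POLA2 was the smallest change of the step, with 507 and 373 counts in WT and 1056 and 779 in HSF1-pLVX (log2 0.80 ± 0.114 SE, edgeR adjusted p = 1.24e-11). Its groups did not overlap, yet its ratio stayed under 2 in each replicate. Of polymerase delta, the catalytic subunit POLD1 rose 4.03-fold, POLD2 2.34-fold and POLD3 2.59-fold. Of polymerase epsilon, the catalytic subunit POLE rose 2.78-fold and POLE2 3.26-fold, the latter on only 38 to 41 counts in WT.

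The sliding clamp and its loader were higher in all 6 genes, 5 at least 2-fold, with a median log2 fold change of 1.33. PCNA, the clamp that tethers the polymerases, was counted 1087 and 1026 times in WT and 3863 and 3104 times in HSF1-pLVX. Both HSF1-pLVX libraries were above WT, and the rise was 2.74-fold (log2 1.46 ± 0.108 SE, edgeR adjusted p = 7.24e-40). At 37.5 to 39.4 CPM per kb in WT and 104.6 to 106.2 CPM per kb in HSF1-pLVX, PCNA had the highest level per kb of the 50 genes in each library. This rank depends on its exon length, 1471 bases. In CPM, RFC1 was above PCNA in each library, at 210.6 and 184.6 against 57.91 and 55.22 in WT. The loader subunits split. RFC4 had 116 and 131 counts in WT and 685 and 515 in HSF1-pLVX, a rise of 4.02-fold (log2 2.01 ± 0.143 SE, edgeR adjusted p = 5.38e-43), and RFC2, RFC3 and RFC5 rose by 2.32-, 3.31- and 2.21-fold. RFC1, the large subunit of the loader, had 3954 and 3430 counts in WT and 7247 and 5675 in HSF1-pLVX, a rise of 1.46-fold (log2 0.54 ± 0.118 SE, edgeR adjusted p = 1.23e-05).

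Single-strand binding was the step with the smallest changes, with a median log2 fold change of 0.68. RPA coats the unwound strand as a trimer of RPA1, RPA2 and RPA3. RPA3 had 186 and 200 counts in WT and 554 and 432 in HSF1-pLVX, a rise of 2.12-fold (edgeR adjusted p = 1.92e-14), and RPA1 rose 1.604-fold. RPA2, at chr1:27891524-27914746 (hg38, minus strand), had 558 and 522 counts in WT and 807 and 694 in HSF1-pLVX. Its fitted fold was 1.16 (log2 0.21 ± 0.113 SE, edgeR adjusted p = 0.0875), which did not pass, although both HSF1-pLVX libraries were above both WT libraries. The log2 ratio of RPA2 was 0.11 in replicate 1 and 0.31 in replicate 2. In the joining of lagging strand pieces all 4 genes rose at least 2-fold in the fit, with a median log2 fold change of 1.71. LIG1, the ligase that seals the pieces, had 355 and 333 counts in WT and 1587 and 1364 in HSF1-pLVX, a rise of 3.57-fold (log2 1.84 ± 0.112 SE, edgeR adjusted p = 5.04e-58). FEN1, the flap nuclease, had 713 and 548 counts in WT and 1727 and 1354 in HSF1-pLVX, a rise of 2.04-fold (log2 1.03 ± 0.105 SE, edgeR adjusted p = 1.43e-21). It lies near the 2-fold limit, with a log2 ratio of 0.857 in replicate 1 and 1.208 in replicate 2. The nuclease DNA2 rose 3.46-fold and RNASEH2A, the catalytic subunit of RNase H2, 3.08-fold.

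Both fork protection genes rose. TIMELESS had 348 and 279 counts in WT and 1212 and 892 in HSF1-pLVX, 2.78-fold (log2 1.48 ± 0.117 SE, edgeR adjusted p = 3.42e-35). CLSPN, the checkpoint mediator claspin, had 113 and 115 counts in WT and 333 and 272 in HSF1-pLVX, 2.21-fold (log2 1.14 ± 0.166 SE, edgeR adjusted p = 3.1e-11). For both genes the groups were apart.

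All 4 nucleotide supply genes rose at least 2-fold, with a median log2 fold change of 1.46. TYMS, thymidylate synthase, at chr18:657604-673578 (hg38, plus strand), had 285 and 271 counts in WT and 1559 and 1257 in HSF1-pLVX, a rise of 4.21-fold (log2 2.07 ± 0.116 SE, edgeR adjusted p = 3.25e-69). TYMS shares 465 exon bases, 18.8% of its length, with the antisense gene ENOSF1, which was counted 378, 368, 1660 and 1289 times in the same libraries. It shares 183 exon bases, 7.41% of its length, with TYMSOS, also on the opposite strand, which was counted 11, 7, 66 and 49 times. The strand setting of the counting is not given in the sources used here, so reads of the shared bases cannot be assigned to TYMS or to its partners. TK1, the salvage kinase for thymidine, had 342 and 251 counts in WT and 1363 and 1040 in HSF1-pLVX, a rise of 3.38-fold (log2 1.76 ± 0.117 SE, edgeR adjusted p = 1.51e-49).

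The ribonucleotide reductase subunits, which reduce ribonucleotides to deoxynucleotides, rose less. RRM1, the large subunit, had 2096 and 1793 counts in WT and 5428 and 3977 in HSF1-pLVX, 2.004-fold (log2 1.003 ± 0.111 SE, edgeR adjusted p = 1.83e-18). It lies on the 2-fold limit, and over the alternative fits its log2 fold change ran from 0.882 to 1.124. RRM2, the small subunit of dividing cells, had 520 and 374 counts in WT and 1467 and 949 in HSF1-pLVX, 2.23-fold (log2 1.16 ± 0.111 SE, edgeR adjusted p = 2.39e-24). The ratio of RRM2 to RRM1 in CPM per kb was 0.209 and 0.176 in WT and 0.228 and 0.201 in HSF1-pLVX, and these ranges overlap. RRM2B, the alternative small subunit known as a p53 target, moved the other way: it had 2948 and 3264 counts in WT and 3239 and 2224 in HSF1-pLVX, a fitted fold of 0.724 (log2 -0.47 ± 0.109 SE, edgeR adjusted p = 4.93e-05). Its level per kb was 5.06 and 7.79 times that of RRM2 in WT and 1.97 and 2.09 times in HSF1-pLVX. SAMHD1, which breaks deoxynucleotides down, had 1078 and 941 counts in WT and 940 and 477 in HSF1-pLVX, a fitted fold of 0.56 (log2 -0.84 ± 0.108 SE, edgeR adjusted p = 5.17e-14). The 2 HSF1-pLVX libraries were far apart for SAMHD1, at 7.43 and 4.77 CPM per kb, and both were below WT at 11.4 and 10.1 CPM per kb. DUT, which removes dUTP, rose 3.14-fold from 337 and 337 to 1419 and 1128 counts (edgeR adjusted p = 9.25e-46).

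**Figure D4:**
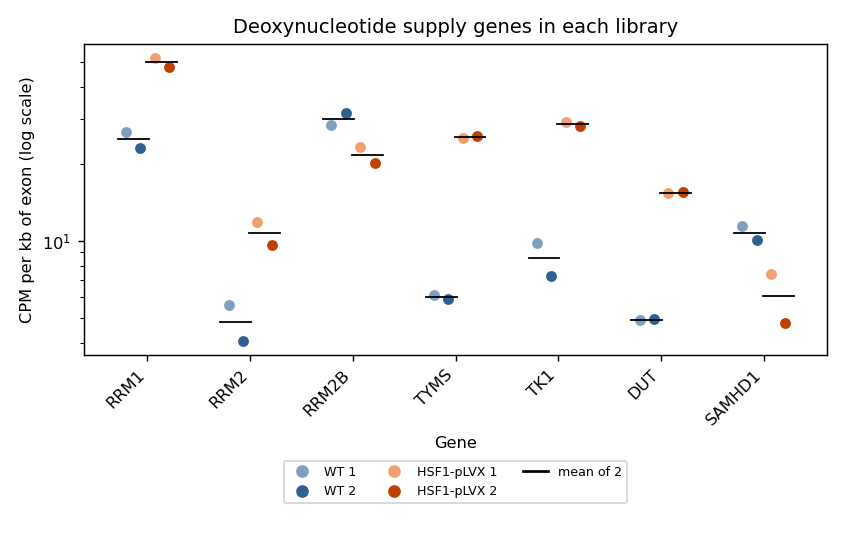
Level of deoxynucleotide supply genes in each library, as CPM per kb of exon on a log axis; points are single libraries and black lines the mean of 2, and RRM2B, DUT and SAMHD1 are not among the 50 genes. RRM1, RRM2, TYMS, TK1 and DUT are higher in both HSF1-pLVX libraries, whereas RRM2B and SAMHD1 are lower.

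Among 59 other genes of replication and nucleotide metabolism, 42 were higher, 6 lower and 11 did not pass. At least 2-fold higher were 26, against 14.9% of all tested genes. Their median log2 fold change was 0.90. The largest rise was ATAD5, which unloads PCNA, at 6.35-fold from 32 and 39 to 315 and 231 counts (edgeR adjusted p = 9.24e-36), and the largest fall was that of SAMHD1. Those in origin firing and helicase work were higher in 11 of 12, and those of purine synthesis in 11 of 12, with PRPS1 lower. Of 12 genes that handle deoxynucleotides 5 were higher and 3 lower, with a median log2 fold change of -0.11, and of 5 pyrimidine synthesis genes 2 were higher and 1 lower. Among all tested genes 32.5% were higher and 32.7% lower, and with so few genes nothing is read from these counts about the last 2 groups. This division into groups was made after the lists were set. The remaining lower genes were ASF1A, a histone chaperone, CTPS2, which makes CTP, and GUK1, which phosphorylates GMP.

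Genes of mitosis rose as well. All 20 genes of a mitotic list were at least 2-fold higher in the fit, against 14.9% of all tested genes, with a median log2 fold change of 1.94. They summed to 327.3 and 260 CPM in WT and to 1144 and 925.4 CPM in HSF1-pLVX. The ratio rule of the study was met by 19 of the 20, against 5% of all genes in that table. AURKA missed it with a ratio of 1.982 in replicate 2. MKI67, the proliferation antigen Ki-67, had 1150 and 749 counts in WT and 5479 and 3329 in HSF1-pLVX, 3.84-fold (edgeR adjusted p = 2.5e-65). The largest rise of that list was the kinase TTK, at 5.23-fold from 89 and 87 to 707 and 426 counts (edgeR adjusted p = 2.3e-52). No mitotic gene of the list fell. By crystal violet staining the study saw no effect of HSF1 overexpression on the growth of MCF10A cells. The part of a different share of cycling cells in the replication results was not tested.

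Other genes share bases with some of the 50. Exon bases are shared with another gene by 21 of them. The largest share with a single other gene was 21.2% of the length, in GINS4, and that partner had at most 5 counts in any library. Shares with several partners, as in TYMS, were not added up. PRIM1 shares 33 bases, 1.35% of its length, on the same strand with NACA, which was counted 6580, 6127, 15540 and 14391 times in the same order of libraries. How reads of those bases were assigned is not given in the sources used here. Named pseudogenes of 11 of them number 21, and none had more than 6 counts in any library.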

How the data were processed

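RNA-seq of ribosomal RNA-depleted total RNA from 2 WT and 2 HSF1-pLVX libraries was analysed; nothing in the labels says whether the replicates came from separate cultures, while the study calls them biological, and whether the HSF1-pLVX cells are 1 clone is not given in the sources used here. The authors sequenced paired ends of 76 bases, aligned to hg38 with HISAT2 2.0.5, used SAMtools 1.13 and counted with featureCounts 1.6.5; the deposited counts are raw reads per gene, in a table named for GENCODE 26. The second table holds log2 values that the authors normalized with DESeq2 1.32.0. Strand and multi-mapping settings are not given in the sources used here. The deposited ratios were recomputed as 2 to the difference of those values.

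Counts were tested in R 4.3.3 with edgeR 4.0.16 (TMM, filterByExpr, glmQLFit and glmQLFTest, with the replicate number as a block, after the ratios within numbers that the study uses, Benjamini-Hochberg over 15830 genes, called at adjusted p under 0.05). The SE is the log2 fold change divided by the square root of F. An exact permutation test of 2 against 2 cannot go below p = 0.33, and counts were not compared that way. The script was tested on simulated data. CPM use TMM-scaled library sizes, and CPM per kb divides by the exon length of the count table. Levels of different genes per kb, and ratios between them, depend on that length. The change of such a ratio between groups does not. Replicates differed beyond sampling noise and were counted apart. Symbols come from GENCODE 44, promoters from RefSeq (GRCh38.p14).

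Values are given in every library for the largest and smallest fold change of each step, each gene not called or called lower, and MCM2, MCM5, CDC6, CDT1, GMNN, PCNA, RRM1, RRM2, TYMS and TK1; outside the list for HSF1, CDC7, DUT, RRM2B, SAMHD1, MKI67 and the largest changes of the other 2 lists. One gene of that rule is not reported here. ORC1, ENOSF1, TYMSOS, NACA, DCN, COL1A1, COL3A1, PDGFRA and PDGFRB were added after their values were seen. The genes and lists were chosen with earlier results of these data known. Alternatives were other scalings, filters and thresholds, DESeq2 1.42.0, no block, leaving out each library, and other forms of the ratio rule.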

Additional observations from a re-analysis of the deposited data

How the results depend on the processing

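Of the 50 genes, 48 were called higher by edgeR in every fit except DESeq2 (46), without HSF1-pLVX replicate 2 (47) and at an adjusted p under 0.01 (47). The fit with no replicate block called 48 higher and 1 lower, and the replicate block changed no call among the 50 genes. Same-numbered libraries deviated from their group means with r = -0.015 over all tested genes, so the numbers are not shown to pair them. The number called lower was 0 with library size scaling only and 0 with the DESeq2 Wald test, and ranged from 0 to 1 when 1 library was left out. That gene was ORC4, whose adjusted p was 0.061 with library size only and 0.108 with DESeq2. ORC2 and ORC3 also missed the threshold with DESeq2 (adjusted p = 0.0627 and 0.184), and ORC3 without HSF1-pLVX replicate 2 (0.055). The cause was not tested. RPA2 passed in none of the fits, with adjusted p from 0.0536 to 0.409. The median change of these genes lay between log2 1.395 and 1.601 over all fits, and no result reversed. The number at least 2-fold higher lay between 38 and 43. Library size scaling moved the median of all tested genes to 0.081. DESeq2 called 3318 genes higher where edgeR called 5138, out of 15830. With 2 libraries per group, p-values rest only on the spread between these libraries. In the fit with the block, the spread of each gene was taken wholly from that shared over genes (prior degrees of freedom infinite). Without the block the prior degrees of freedom were 11.9. For CDT1 the edgeR adjusted p was 2.2e-159 with the block and 7.65e-11 without it. Leaving out 1 library leaves a lone one that is assumed to vary like the other group. Low counts limit POLE2, ORC1, PRIM1 and DNA2, which had at most 69 counts in each WT library.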
